A study of Mus musculus with 4 samples.

Results

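The 10 genes described here, Grb10, Zrsr1, Igf2r, Slc38a4, Mest, Peg3, Snrpn, Kcnq1ot1, H19 and Igf2, are imprinted mouse genes or the RNAs transcribed from their control regions. CpG sites were taken where they lay within 1 kb of a gene's 5′ end in the GENCODE vM1 annotation of mm9 and had at least 10 reads in a library, and methylation was the share of those reads with an unconverted cytosine. Of the 10 genes, 9 had a gene record among the 37310 of the annotation, Kcnq1ot1 being the one without. The windows held 102 of 648759 covered sites in WT serum, 101 of 681267 in KO serum, 114 of 816807 in WT 2i + Vitamin C and 90 of 591877 in KO 2i + Vitamin C. Only Grb10, Zrsr1 and Igf2r had sites covered in all 4 libraries.

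The study compared mouse embryonic stem (ES) cells that lack a cluster of KRAB zinc-finger protein genes on chromosome 4 (Chr4-cl KO) with wild-type cells (Chr4-cl WT). Both genotypes were grown in serum medium with LIF, or for 1 week in 2i medium with vitamin C, a medium that lowers DNA methylation genome-wide. Each of the 4 combinations was 1 reduced representation bisulfite sequencing (RRBS) library, in which MspI cuts the DNA at CCGG and only the ends of the short fragments are read. The WT and KO cells were individual clones picked after CRISPR editing of a line from mice that carry a tamoxifen-inducible Cre at Rosa26 on a mixed B6 and 129 background, so genotype and clone cannot be told apart. With 1 library per group there was no replicate, and every p-value below comes from a two-sided Fisher's exact test on the reads of 2 libraries, adjusted by the Benjamini-Hochberg method over all sites of the genome. Such a test compares those libraries, not the conditions. CpG sites on the same fragment share reads and are not independent of each other.

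An imprinted gene is expressed mainly from the maternal or the paternal copy. The copies differ in DNA methylation at a control region, which is methylated in one germ line and then kept through the demethylation of the early embryo, so that about equal shares of methylated and unmethylated reads are usual there. ZFP57, a KRAB zinc-finger protein that binds the methylated hexamer TGCCGC, and its partner KAP1 are known to keep that methylation. H19 and Igf2 share a control region upstream of H19 that is methylated on the paternal copy and binds the insulator protein CTCF when unmethylated. At Grb10, Igf2r, Mest, Peg3, Snrpn and Kcnq1ot1 the methylated copy is the maternal one.

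Total reads over CpG sites ranged from 42672691 in KO 2i + Vitamin C to 90649194 in WT 2i + Vitamin C, and the median depth of covered sites from 25 to 50 reads. The deleted cluster had 584 covered sites in WT serum and 9 in KO serum, and 680 against 10 in 2i + Vitamin C, as the labels state. Over the 400195 sites covered in all libraries the mean methylation was 27.4% in WT serum, 30.5% in KO serum, 13.9% in WT 2i + Vitamin C and 12.2% in KO 2i + Vitamin C. Over all reads of each table, at any depth, the methylated share was 24.5%, 22.0%, 11.8% and 14.2% in that order, so the order of the genotypes in each medium was the reverse. RRBS gives no transcript levels, and of 7 ES cell marker promoters 5 were covered in WT serum, none of them Pou5f1 or Nanog, so the labelled cell type could not be checked by expression.

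Most gene records of imprinted genes start at the outermost promoter, and the annotation gives the 10 genes 54 transcripts in 31 groups of 5′ ends lying more than 1 kb apart. Sites within 1 kb of these other 5′ ends were therefore described too. Sites were present at 19 of the 31 groups. For Kcnq1ot1, which runs antisense inside Kcnq1, the 5′ end of its RefSeq promoter sequence was used, placed by 1 exact match at chr7:150482452 on the minus strand of mm9. That choice was made after the gaps in coverage were seen.

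Fragments that carry the main values are printed here, each read 5′ to 3′ on the plus strand of mm9, with the measured CpG dinucleotides in capitals. The first pair flanks the Grb10-001 and Grb10-002 transcript starts, the region of the 10 genes where the WT and KO libraries differed most, at chr11:11925630-11925808 and chr11:11926769-11926885. Both lie inside the Grb10 gene and outside its annotated exons.
Grb10 downstream fragment: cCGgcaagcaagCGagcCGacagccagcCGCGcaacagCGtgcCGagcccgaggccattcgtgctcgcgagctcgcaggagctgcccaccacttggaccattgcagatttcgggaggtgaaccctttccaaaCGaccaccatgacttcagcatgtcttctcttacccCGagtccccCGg
Grb10 upstream fragment: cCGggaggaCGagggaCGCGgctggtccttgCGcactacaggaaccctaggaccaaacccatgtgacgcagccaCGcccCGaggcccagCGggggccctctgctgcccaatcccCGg

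The next 3 are partly methylated fragments at Snrpn (chr7:67149535-67149788, inside Snrpn and outside exons), Kcnq1ot1 (chr7:150481373-150481524, inside Kcnq1 and outside exons) and Airn (chr17:12934455-12934617, inside Igf2r and Airn and outside exons). Airn is the non-coding RNA that starts within Igf2r and silences it on the paternal copy.
Snrpn fragment: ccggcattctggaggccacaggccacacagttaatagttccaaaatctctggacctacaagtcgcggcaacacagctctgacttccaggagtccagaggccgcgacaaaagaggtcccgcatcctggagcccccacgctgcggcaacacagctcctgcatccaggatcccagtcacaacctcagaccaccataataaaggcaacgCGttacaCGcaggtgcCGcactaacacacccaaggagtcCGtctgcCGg
Kcnq1ot1 fragment: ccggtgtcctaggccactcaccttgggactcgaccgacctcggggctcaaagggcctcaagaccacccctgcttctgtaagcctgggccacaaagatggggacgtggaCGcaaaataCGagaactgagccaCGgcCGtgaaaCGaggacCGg
Airn fragment: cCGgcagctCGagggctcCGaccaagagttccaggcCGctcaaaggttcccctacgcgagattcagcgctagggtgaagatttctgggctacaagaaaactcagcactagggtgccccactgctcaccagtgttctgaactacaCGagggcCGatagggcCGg

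The last pair shows fragments that were little methylated in WT cells, next to the first Grb10 promoters (chr11:11937850-11938059, inside Grb10, no exon) and upstream of Zrsr1 (chr11:22872580-22872629, inside Commd1, no exon). Zrsr1, a splicing-factor retrogene, lies within an intron of Commd1.
Grb10 first-promoter fragment: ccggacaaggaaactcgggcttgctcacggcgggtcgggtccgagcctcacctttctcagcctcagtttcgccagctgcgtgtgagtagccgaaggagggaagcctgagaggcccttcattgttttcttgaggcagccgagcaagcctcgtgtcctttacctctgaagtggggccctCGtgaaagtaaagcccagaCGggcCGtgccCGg
Zrsr1 fragment: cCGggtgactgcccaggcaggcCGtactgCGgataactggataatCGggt

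Grb10 encodes an adaptor protein that dampens insulin and growth factor signalling. Around the 5′ ends of Grb10-001 and Grb10-002, 11.95 kb downstream of the gene record's start, methylation was lower in the KO library than in the WT library in both media. In WT serum the 40 covered sites averaged 57.5% and ranged from 43.6% to 83.1%. In KO serum 36 sites averaged 6.28%, with a highest value of 17.5%, so the sites of the 2 libraries did not overlap. How often windows of the genome lack such overlap was not counted. Sites on the same fragment share reads, so the sites are not separate measurements. In WT 2i + Vitamin C 36 sites averaged 26.7% and ranged from 12.01% to 54.0%, whereas in KO 2i + Vitamin C 27 sites averaged 1.62% and 26 of them, those shared with WT, averaged 1.68%. The median depth over these sites was 208, 312, 280 and 25 reads in that order.

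In serum all 36 shared Grb10-001/-002 sites were lower in the KO, with a mean KO minus WT difference of -50.8 points (SD over sites 6.72, range -74.0 to -39.7). A site was called where the adjusted p was under 0.05 and the difference at least 20 percentage points. All 36 were called, and adjusted p ranged from 1.74e-66 to 0.000417. Among all 588613 sites compared in serum, 677 fell in this way, which is 0.115%. In 2i + Vitamin C all 26 shared sites were again lower in the KO, with a mean difference of -26.1 points, and 8 were called, where the background was 0.361%. The lowest adjusted p of these exact tests was 0.00161, at chr11:11926800, with 54.0% of 100 reads in WT and 7.41% of 27 reads in KO. In the downstream fragment printed above, the pooled reads were 51.4% methylated in WT serum (95% Wilson interval 49.7 to 53.0), 5.25% in KO serum (4.62 to 5.96), 25.3% in WT 2i + Vitamin C (23.6 to 27.1) and 1.29% in KO 2i + Vitamin C (0.441 to 3.73). The intervals cover counting error only.

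**Figure D1:**
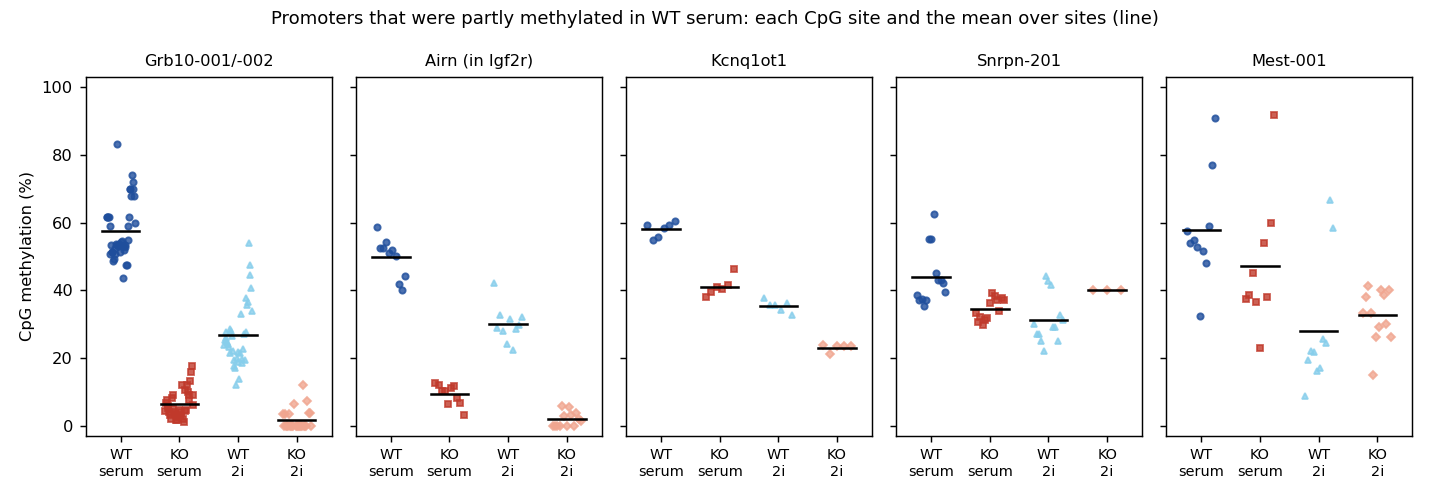
Methylation in percent (vertical axis) of each covered CpG site within 1 kb of the 5′ ends of Grb10-001 and Grb10-002, Airn, Kcnq1ot1, Snrpn-201 and Mest-001, by library, with a line at the mean over sites. At Grb10, Airn and Kcnq1ot1 the KO sites lie below the WT sites in both media. Their KO and WT means in serum are 6.28% against 57.5%, 9.21% against 49.7% and 41.1% against 58.02%. At Snrpn-201 and Mest-001 the clouds overlap.

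At the other Grb10 promoters no site was called lower in the KO. At the gene record's own start, which is that of Grb10-003, sites averaged 11.2% in WT serum, 17.2% in KO serum, 4.54% in WT 2i + Vitamin C and 0.882% in KO 2i + Vitamin C. All 21 sites shared in serum were higher in the KO, by 8.20 points on average (SD 7.04), and 2 were called higher. The mean difference was 13.8 points over the 2 sites within 500 bp and 2.75 points over the 95 sites within 2 kb. These were the only 2 calls between genotypes among the 101 sites compared in serum within 1 kb of a gene record's 5′ end. They are 1.98% of the 101, beside 1.82% of all sites of the genome called higher. None of the 101 was called lower, beside 0.115% of all sites. Both calls lie in the first-promoter fragment printed above. The site at chr11:11938046 had 10.4% in WT serum, 34.0% in KO serum, 3.13% in WT 2i + Vitamin C and 0% of 63 reads in KO 2i + Vitamin C (exact test between genotypes in serum, adjusted p = 5.99e-05). The site at chr11:11938051, which is also the site nearest to the record's start in all libraries, had 18.7%, 44.1%, 10.7% and 0% of 63 reads (adjusted p = 0.000206, Fisher's exact test). Values of 0 of 63 reads allow up to 3 reads.

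At the Grb10-005 group of 4 transcripts, 1.28 kb downstream of the record's start, 93 sites shared in serum averaged 2.06% in WT and 4.56% in KO. Beyond those 2 sites, which this window shares, 1 site there, at chr11:11937171, rose from 1.47% of 204 reads in WT serum to 31.1% of 135 reads in KO serum (adjusted p = 3.37e-13, Fisher's exact test). In 2i + Vitamin C the order at this site was the reverse, 23.1% in WT and 2.38% in KO, a difference that was not called (adjusted p = 0.120, exact test). Grb10 thus held the 36 sites called lower and the 3 called higher in serum among the 298 compared at all annotated 5′ ends.

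**Figure D2:**
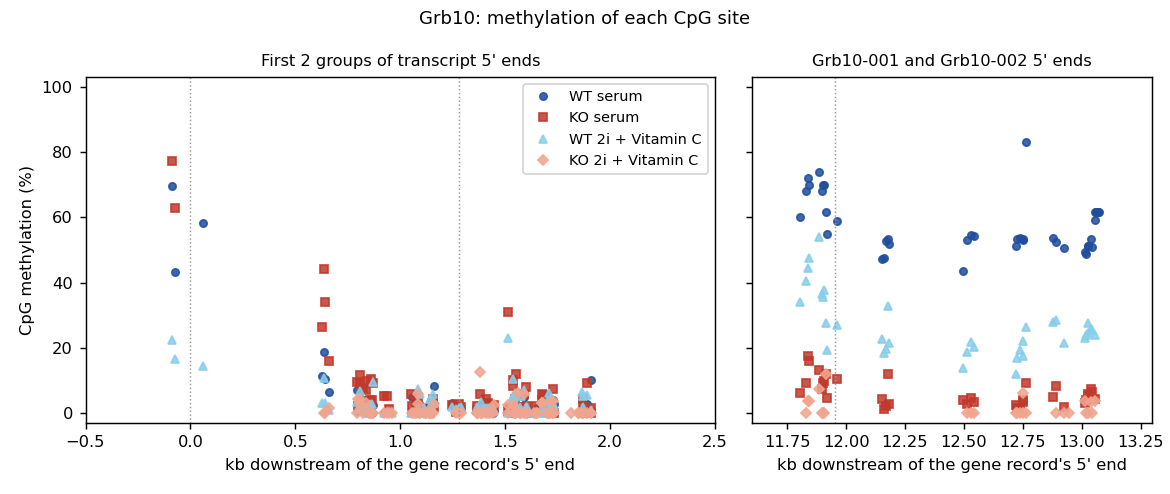
Methylation in percent of each covered Grb10 CpG site against its distance in kb downstream of the gene record's 5′ end, for the 4 libraries; dotted lines mark the groups of transcript 5′ ends. On the left most sites lie near 0, and on the right, around Grb10-001 and Grb10-002, WT serum sites lie between 43.6% and 83.1% while KO serum sites reach at most 17.5%.

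Igf2r encodes the receptor that clears IGF2 from the cell surface. Its own promoter was unmethylated: within 1 kb of the start, means were 2.21% in WT serum, 2.97% in KO serum, 1.84% in WT 2i + Vitamin C and 1.34% in KO 2i + Vitamin C over 40 to 47 sites. The site nearest the start, at chr17:12962538, had 1.98%, 2.08%, 1.10% and 0.444%. The largest genotype difference in serum was at chr17:12962566, 30.8% of 13 reads in WT against 6.25% of 16 reads in KO, and was not called (adjusted p = 0.710, Fisher's exact test). In 2i + Vitamin C the largest was at chr17:12962588, 9.09% of 11 reads in WT against 0% of 17 reads in KO, with an adjusted p of 1.0 by the exact test. At 3 of the 40 sites in serum the adjusted p was under 0.05 with a difference under 20 points. The share of all sites of the genome under that p alone was not counted.

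The control region of Igf2r, at the Airn start inside the gene, was also less methylated in the KO. Airn was one of the neighbouring genes and not one of the 10. Its 10 sites averaged 49.7% in WT serum and 9.21% in KO serum, and every KO value (at most 12.5%) lay below every WT value (at least 40.2%). Such a lack of overlap was not counted over the genome, and sites on the same fragment share reads. In 2i + Vitamin C 10 WT sites averaged 29.98% and 13 KO sites 1.87%. All 10 shared sites were lower in KO serum, with a mean difference of -40.5 points, and 9 were called with a lowest adjusted p of 5.63e-21 (exact test). In 2i + Vitamin C all 9 shared sites were lower, with a mean difference of -28.1 points, and 6 were called. Of 13210 gene windows with at least 3 sites in all libraries, 14 were lower by 20 points or more in KO than in WT in serum, or 0.106%, and 29 in 2i + Vitamin C, or 0.220%. Airn was among both.

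Kcnq1ot1, the antisense RNA that silences Cdkn1c, Kcnq1 and their neighbours on the paternal copy, was also lower in the KO, by less than Airn. The 6 sites of its fragment averaged 58.02% in WT serum, 41.1% in KO serum and 35.3% in WT 2i + Vitamin C, and 5 of them averaged 23.1% in KO 2i + Vitamin C. Within each library the sites lay close together. They lay between 54.9% and 60.5% in WT serum and between 37.9% and 46.2% in KO serum, so these libraries did not overlap. All 6 sites lie on the same fragment and share reads, so they are not separate measurements. How often windows of the genome lack such overlap was not counted here either. The KO was lower at 6 of 6 sites in serum, with a mean difference of -16.96 points. Of these, 1 site was called (adjusted p = 0.0217, Fisher's exact test), beside 0.115% of all sites. In 2i + Vitamin C it was lower at 5 of 5, with a mean difference of -12.8 points, and no site was called, with the lowest adjusted p of the exact tests at 0.901. Depth was 46 to 47 reads per site in KO 2i + Vitamin C and at least 76 in the other libraries.

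Snrpn encodes a protein of the spliceosome, and its control region lies at the promoter of Snrpn-201, 135.1 kb downstream of the gene record's start, where no site was covered. The 13 sites there averaged 44.0% in WT serum, 34.5% in KO serum and 31.3% in WT 2i + Vitamin C, and 3 sites averaged 40.0% in KO 2i + Vitamin C at 10 reads each. All 13 sites were lower in KO than in WT serum, with a mean difference of -9.41 points (range -23.4 to -2.14), and none was called (lowest adjusted p = 0.255, exact test). The deepest fragment, printed above, had 546 to 548 reads per site in WT serum, and there the pooled levels were 37.1% (Wilson interval 35.3 to 39.0) in WT serum, 31.4% (29.8 to 33.2) in KO serum and 26.2% (24.6 to 27.8) in WT 2i + Vitamin C. At Snrpn the WT difference between 2i + Vitamin C and serum was -12.7 points over 13 sites. None was called lower, although 5 had an adjusted p under 0.05, a count without a genome-wide share beside it.

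Mest encodes a hydrolase of the endoplasmic reticulum. No site was covered at the start of the gene record, and the described values come from the Mest-001 group of 5 transcripts, 14.5 kb downstream. Means were 57.8% over 10 sites in WT serum, 47.2% over 9 in KO serum, 28.0% over 10 in WT 2i + Vitamin C and 32.6% over 12 in KO 2i + Vitamin C. The ranges overlapped in every pair of libraries. No site was called between genotypes in either medium: the mean difference was -6.90 points over 9 shared sites in serum and 12.2 points over 7 in 2i + Vitamin C (lowest adjusted p = 0.720 and 0.402, Fisher's exact tests). KO coverage was thin, with median depths of 26 reads in KO serum and 23 in KO 2i + Vitamin C. Mest-010 and Mest-011, 18.5 kb downstream of the record's start, were close to fully methylated in serum at 3 sites (94.9% in WT, 98.4% in KO). Over the same sites they were at 51.9% in WT and 30.2% in KO 2i + Vitamin C. Depth there was 12 to 13 reads a site in WT serum and 13 to 14 in KO 2i + Vitamin C.

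**Figure D3:**
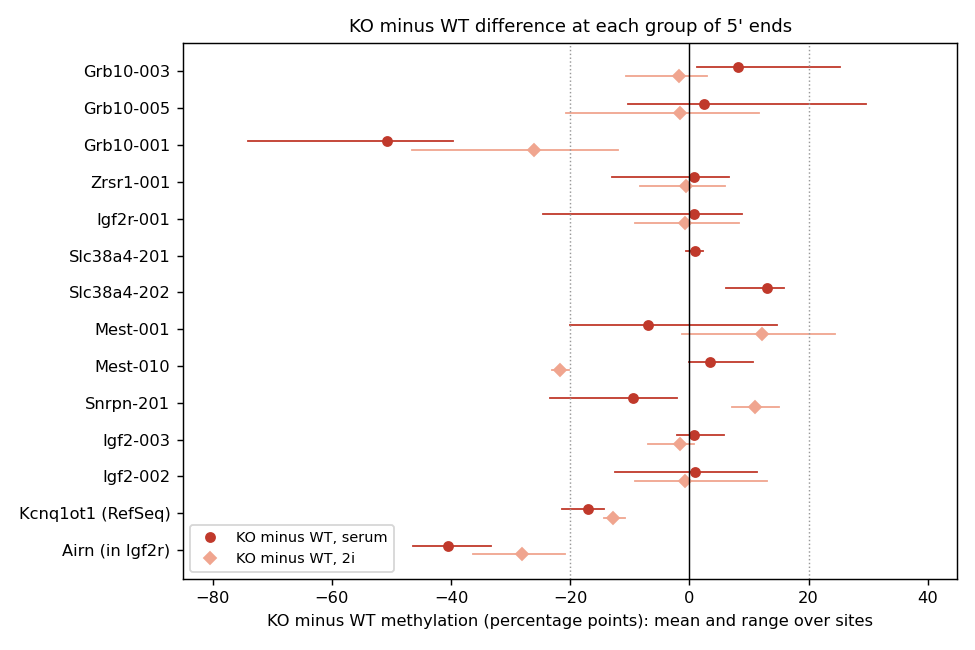
KO minus WT methylation in percentage points at each group of 5′ ends with at least 3 shared sites, as the mean (marker) and the range over sites (line), in each medium; dotted lines mark 20 points in each direction. Grb10-001 (-50.8 and -26.1), Airn (-40.5 and -28.1) and Kcnq1ot1 (-16.96 and -12.8) lie below 0 over their whole range in both media, and labels give the first transcript of each group.

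Zrsr1 was little methylated at its covered sites in all libraries, WT serum included. Its levels were not near the equal shares that are usual at a control region, and the reason was not tested. Within 1 kb of its start, means were 2.37% in WT serum, 3.09% in KO serum, 2.40% in WT 2i + Vitamin C and 1.70% in KO 2i + Vitamin C over 31 to 33 sites, and the highest single value was 18.8%. The site nearest the start in all libraries, at chr11:22873161, had 0% of 83 reads, 1.75%, 8.33% and 0% of 50 reads. The largest genotype difference in serum, at chr11:22872845, was 12.9% of 31 reads in WT against 0% of 27 in KO (adjusted p = 0.639, exact test). At 2 of the 32 sites the adjusted p was under 0.05, with differences under 20 points. The genome's share of sites under that p alone was not counted. In the fragment printed above, which was read 229 or more times per site, pooled methylation was 0.811% (Wilson interval 0.411 to 1.59) in WT serum, 3.30% (2.49 to 4.36) in KO serum, 2.25% (1.57 to 3.22) in WT 2i + Vitamin C and 0.526% (0.225 to 1.23) in KO 2i + Vitamin C.

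Slc38a4 encodes an amino acid transporter. Its first promoter was at 0.433% in WT serum, 1.36% in KO serum and 2.203% in WT 2i + Vitamin C over 6 sites, none of which reached 10 reads in KO 2i + Vitamin C. The start of Slc38a4-202, 35.6 kb downstream, was methylated: 5 sites averaged 73.9% in WT serum and 86.9% in KO serum, and the same 5 averaged 6.27% in WT 2i + Vitamin C. The KO was higher at 5 of 5 sites in serum, by 13.0 points on average, and none was called (lowest adjusted p = 0.128, exact test). All 5 were called lower in WT 2i + Vitamin C than in WT serum, with a mean difference of -67.7 points.

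Peg3 encodes a zinc-finger transcription factor. Sites within 1 kb of its start reached 10 reads only in WT 2i + Vitamin C, where 3 sites stood at 18.2%, 23.5% and 31.0% on 29 to 34 reads each, and the pooled level was 24.0% (Wilson interval 16.5 to 33.4). No genotype or medium comparison could be made there.

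H19, a growth-restraining non-coding RNA, was highly methylated in serum. The site at its 5′ end had 89.9% of 375 reads in WT serum, 86.1% of 873 reads in KO serum and 43.0% of 707 reads in WT 2i + Vitamin C, and was not covered in KO 2i + Vitamin C. With the second site of that window, means were 91.5%, 88.6% and 53.0%. No site was called between genotypes in serum, and both were called lower in WT 2i + Vitamin C, with a mean difference of -38.5 points. The stretch 3 to 4 kb upstream, on the side of the control region, had 2 sites in each serum library, at 83.1% in WT and 79.5% in KO, and 3 in WT 2i + Vitamin C at 62.2%. At the H19-003 and H19-004 starts 2 sites had means of 98.6%, 96.9%, 75.3% and 54.2% in WT serum, KO serum, WT 2i + Vitamin C and KO 2i + Vitamin C, and each was called lower in 2i + Vitamin C in both genotypes.

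**Figure D4:**
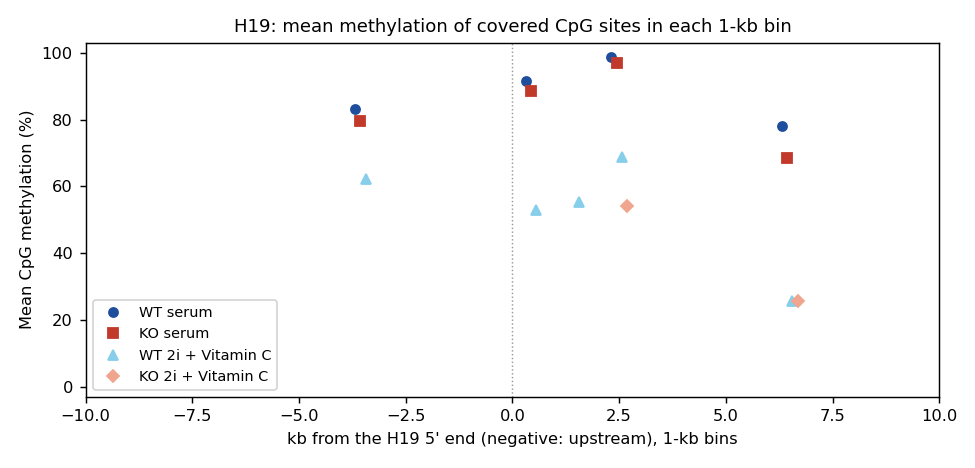
Mean methylation in percent of the covered CpG sites in 1-kb bins from 10 kb upstream (negative) to 10 kb downstream of the H19 5′ end, for the 4 libraries; bins hold 1 to 3 sites. Serum values lie at 68.4% or higher in each bin, and 2i + Vitamin C values are lower than the serum values in each bin that both media share.

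Igf2, the growth factor that Igf2r removes, had 4 groups of transcript starts. At the Igf2-003 group (18 sites in serum) and the Igf2-002 group (35 sites in WT serum, 38 in KO serum) methylation was 2.36% and 2.99% in WT serum and 3.21% and 4.16% in KO serum, and stayed under 3% on average in both 2i + Vitamin C libraries. At the Igf2-001 group, by contrast, 2 sites were methylated in serum. The site at chr7:149843247 had 84.3% in WT serum, 82.2% in KO serum, 44.5% in WT 2i + Vitamin C and 37.8% in KO 2i + Vitamin C. The site at chr7:149843404, next to the 5′ end, had 36.4%, 46.6%, 7.87% and 6.15%. Both were called lower in 2i + Vitamin C in each genotype and neither was called between genotypes. The outermost start, Igf2-004, had 1 covered site, in KO 2i + Vitamin C only, at 40.0% of 10 reads.

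Medium changed far more sites of the genome than genotype did. Of all sites compared, 31.8% were called lower in 2i + Vitamin C than in serum in WT and 28.6% in KO, and 0.144% and 0.0297% were called higher. Within 1 kb of the gene records' 5′ ends the counts were 4 of 102 lower in WT, or 3.92%, and 2 of 82 in KO, or 2.44%, with 0 higher in both. Of the 102, 32 lay at Zrsr1 and 40 at Igf2r, with WT serum means of 2.37% and 2.21%. A site under 20% in serum cannot fall by the 20 points that a call needs. These shares therefore do not show whether the sites resist the medium. The WT calls were the H19 pair above and 2 Grb10 sites beside the record's start, at chr11:11938774 (69.6% to 22.4%) and chr11:11938759 (43.1% to 16.7%), none of them covered in KO 2i + Vitamin C. The KO calls were the Grb10 sites at chr11:11938046 and chr11:11938051 described above. Between genotypes in 2i + Vitamin C, 0 of 83 sites were called in either direction, beside 0.361% lower and 0.0897% higher over the genome. At all annotated 5′ ends, 57 of 300 sites were called lower in WT 2i + Vitamin C and 11 of 238 (4.62%) in KO. Of the 57, Grb10-001/-002 gave 35, Mest-001 7 and Slc38a4-202 5. In the KO library Grb10-001/-002 had 0 of 26, as its serum level was already at 6.69% over those sites.

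The methylation left in 2i + Vitamin C at the partly methylated regions is set here beside sites of like level. Of the genome's sites with 30% to 70% in WT serum, 30121 were covered in all libraries. Their medians were 69.1% in KO serum, 10.96% in WT 2i + Vitamin C and 9.52% in KO 2i + Vitamin C. Kcnq1ot1 stood at 35.3% in WT 2i + Vitamin C, Snrpn-201 at 31.3%, Airn at 29.98%, Mest-001 at 28.0% and Grb10-001/-002 at 26.7%. In KO 2i + Vitamin C Snrpn-201 stood at 40.0%, Mest-001 at 32.6% and Kcnq1ot1 at 23.1%, above the median of those sites. Airn and Grb10-001/-002 stood at 1.87% and 1.62%, below it. The Snrpn-201 value in KO rests on 3 sites at 10 reads each, and that in WT on 13 sites. Over the 3 shared sites WT 2i + Vitamin C stood at 29.0%. At 1 of them, chr7:67150085, the KO value of 40.0% had a Wilson interval of 16.8 to 68.7. Such sites covered in WT serum, KO serum and WT 2i + Vitamin C numbered 50238. Their median KO minus WT difference in serum was 15.6 points, and 2.35% were lower by at least 20. These are descriptions of a few regions and carry no test.

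**Figure D5:**
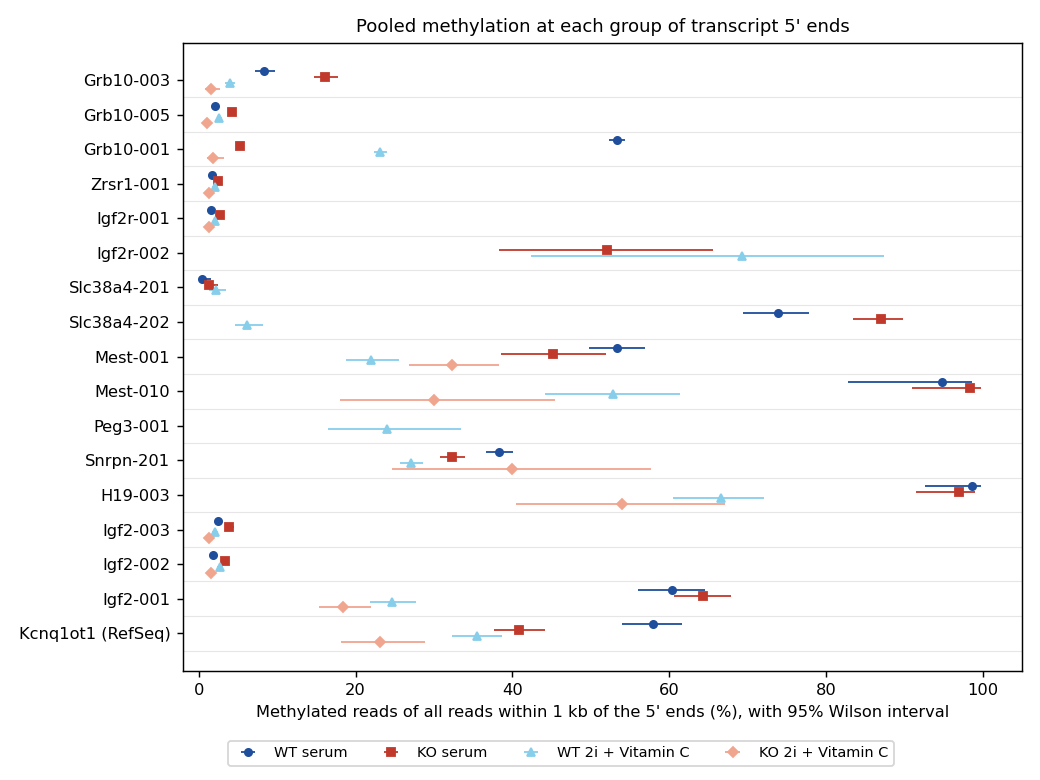
Pooled share of methylated reads in percent within 1 kb of each group of transcript 5′ ends with at least 3 covered sites in a library, and of Kcnq1ot1, for the 4 libraries, with 95% Wilson intervals; labels give the first transcript of each group. Zrsr1, Igf2r-001, Grb10-005, Igf2-003 and Igf2-002 lie near 0, and the control regions of Grb10, Kcnq1ot1, Snrpn and Mest between 38.3% and 57.9% in WT serum.

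At the little methylated promoters of Zrsr1 and Igf2r the mean genotype difference was 0.728 and 0.758 points in serum. In the other medium it was -0.584 and -0.786. The median over all gene windows had the same signs, 1.05 and -0.898 points. The tables of WT serum and KO 2i + Vitamin C each consisted of 2 tables joined end to end, unlike the other 2. At the 256532 sites that averaged under 10%, both single-table libraries were above both joined-table libraries at 27.3% of sites and the opposite held at 5.55%. The order held at 11 against 2 of 26 such Zrsr1 sites and at 10 against 3 of 38 Igf2r sites. The form of the table and the combination of genotype and medium cannot be told apart.

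Of 18 neighbouring genes in the same imprinted domains, 14 had at least 3 sites in all libraries. Of them, Airn alone was lower by 20 points or more in the KO, in both media. The median KO minus WT difference of the 14 was 0.976 points in serum, against -1.18 in the other medium. Between media, Slc22a2, an organic cation transporter, and Magel2, a gene of the Snrpn domain, differed in WT (2i + Vitamin C minus serum) by -20.6 and -29.9 points, over 4 and 3 sites, where 7.00% of gene windows were lower by 20 points or more. In KO these and Slc22a3 differed by -29.02, -39.8 and -23.1 points, where 9.05% of windows were that much lower. The promoters of Ube3a, Kcnq1, Ascl2, Phlda2, Tssc4, Copg2 and Commd1 moved by less than 5 points in each comparison.

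The hexamer TGCCGC was searched on both strands within 1 kb of each start, for a group of starts around its outermost one only. Where a group has several starts, this window is narrower than that of the methylation values. At Grb10-001/-002 it leaves out part of the downstream fragment printed above. It was found 12 times at Mest-001, 10 at Snrpn-201, 6 at Peg3, 5 at Airn and at the little methylated Grb10-005 group, 4 at Grb10-001/-002, 3 at Kcnq1ot1, 2 each at the Zrsr1 and Slc38a4 records and 1 at Igf2r. It was absent from the windows of the Grb10 record's start, both H19 groups and Igf2-004. Of the windows of all 37310 genes, 34.2% hold at least 1 copy. Measured CpG sites inside the hexamer were few. At Mest-001 2 such sites averaged 51.4% in WT serum, 41.5% in KO serum, 23.8% in WT 2i + Vitamin C and 35.3% in KO 2i + Vitamin C, against 59.3%, 48.8%, 29.1% and 32.02% at the others. At the Grb10-005 group 3 such sites averaged 1.71% in WT serum, 10.96% in KO serum, 9.01% in WT 2i + Vitamin C and 0.794% in KO 2i + Vitamin C, against 2.07%, 4.35%, 2.13% and 0.863% at the others. At Snrpn-201 3 such sites averaged 41.0% in WT serum and 35.7% in KO serum, against 44.9% and 34.2% at the other 10. The core GGNGGCAG of the CTCF motif occurred 8 times on either strand in the 10 kb upstream of H19, at 1298 to 5887 bp. At least 1 copy stands in 89.2% of upstream windows of that length and at least 8 in 9.28%. These matches describe letters and not binding.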

How the data were processed

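RRBS libraries of 4 samples were used, 1 for each combination of genotype and medium. DNA was cut with MspI, bisulfite converted and sequenced as 50 bp paired-end reads. Trimming with Trim Galore was done by the authors, who aligned the reads to mm9 with Bismark and merged both strands of each CpG (versions not given in the sources used here). For every CpG the deposited tables give 2 counts, all reads and methylated reads, as the authors counted them, without normalization. They also give the fraction that the authors formed from these, between 0 and 1. A C-to-T difference between strains would read as unmethylated and was not tested.

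Methylation was recalculated as methylated reads over reads at sites with at least 10 reads. All 20000 positions checked fell on CG in mm9. The tables of WT serum and KO 2i + Vitamin C were each 2 tables joined end to end, and rows whose position was repeated (332 and 830 rows, both copies) were left out. 5′ ends came from GENCODE vM1, with RefSeq promoter sequences (GRCm38.p6) of 300 bases placed on mm9 by 1 exact match. Printed sequences were read from mm9. Differences were tested per site with a two-sided Fisher's exact test on reads, with Benjamini-Hochberg adjustment over all sites covered in both libraries, and called at an adjusted p under 0.05 and at least 20 percentage points. The 4 comparisons were KO against WT in each medium and 2i + Vitamin C against serum in each genotype. Intervals are 95% Wilson intervals and cover counting error only. The sites named were those nearest each gene's 5′ end in all libraries and those with the largest genotype difference in each medium. Other called sites, including chr11:11938046, chr11:11937171 and the sites of Igf2-001, were named after their values were seen. The genes and lists were chosen with earlier results of these data known. The calculation was tested on simulated counts at the depths of the libraries, with 200 of 50000 sites, all well methylated, lowered by 50 points. The call recovered 67% of the lowered sites for KO minus WT in serum and 56.5% in 2i + Vitamin C. Between media it recovered 66.5% in WT and 65.5% in KO. A site without a call may therefore still differ. At most 3 unchanged sites were called in a comparison. The simulated counts varied by read sampling alone, so this says nothing of differences between clones or libraries. A far larger share of sites was called between media than was lowered here, so recovery there may differ. Python 3.11.15, numpy 2.4.6, pandas 2.3.3, scipy 1.17.1, statsmodels 0.14.6, numba 0.67.0, pysam 0.24.0, matplotlib 3.10.9 and samtools 1.23.1 were used. Alternatives were other coverage minimums, windows, 5′ ends, pooled reads, sites in all libraries and other ways of reading the joined tables.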

Additional observations from a re-analysis of the deposited data

Results flagged for a closer look

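At 9 starts with at least 3 sites covered in all libraries, the mean KO minus WT difference had opposite signs in serum and in 2i + Vitamin C over those sites. These differences between media were not tested, and each rests on 1 library per group. The differences below are KO minus WT in serum less KO minus WT in 2i + Vitamin C, in percentage points. At Mest-001 the value was -23.3 over 7 sites, from -11.1 in serum and 12.2 in 2i + Vitamin C. At Mest-010 it was 25.2 over 3 sites, from 3.54 and -21.7, on 12 to 13 reads a site in WT serum and 13 to 14 in KO 2i + Vitamin C. None of these 3 sites was called between genotypes in either medium. At Snrpn-201 it was -17.4 over 3 sites, from -6.42 and 10.99, where KO 2i + Vitamin C had 10 reads a site. At the Grb10 record's start it was 8.93 over 17 sites, from 7.04 and -1.89, and at the Grb10-005 group 3.995 over 86 sites. At the little methylated starts it was 0.841 at Zrsr1 over 26 sites, 1.54 at Igf2r over 39, 3.07 at the Igf2-003 group over 8 and 2.12 at the Igf2-002 group over 34. At these last 4, at Grb10 and at Mest-010 the sign in each medium was that of the median over all gene windows. That median was 1.05 points in serum and -0.898 in 2i + Vitamin C. The form of the tables and the combination of genotype and medium cannot be told apart.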

How the results depend on the processing

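Over the 10 genes, calls were counted within 1 kb of the gene record's 5′ end under 10 alternative settings. With any annotated transcript 5′ end, sites lower in KO numbered 36 in serum and 8 in 2i + Vitamin C in place of 0 in both, and sites lower in 2i + Vitamin C numbered 57 in WT and 11 in KO in place of 4 and 2, with 1 higher in WT in place of 0. With RefSeq 5′ ends, 1 of 256 sites was lower in KO serum. There 19 of 257 (7.39%) and 5 of 210 (2.38%) were lower in 2i + Vitamin C in WT and KO, and 1 was higher in WT. Within 2 kb, 8 of 193 sites in WT and 5 of 163 in KO were lower in 2i + Vitamin C, and 1 was higher in WT. Within 10 kb, 26 of 301 in WT (8.64%) and 22 of 245 in KO (8.98%) were lower, and 1 was higher in WT. Higher in KO serum were 4 of 296 (1.35%) in place of 2 of 101 (1.98%). Over the genome 31.8% and 28.6% of sites were lower in 2i + Vitamin C in WT and KO, and 1.82% were higher in KO serum. Sites under 20% in serum cannot be called lower, which limits a comparison of these shares. Within 500 bp, 0 sites were higher in KO serum and 0 lower in KO 2i + Vitamin C. Among sites covered in all libraries, 0 were lower in WT 2i + Vitamin C. The RefSeq ends and the 10 kb window were chosen after seeing the data. These counts change because other sites are included. The other 61 of 80 counts stayed within 1.5 times. Most of these were counts of 0 that stayed at 0, which say little about the sites that were called. Of 76 mean differences, 60 stayed within the counting interval of the reported value, and 16 moved outside it. The largest moves were at the Grb10 record's start. There KO minus WT in serum was 8.20 points and became 13.8 within 500 bp (2 sites) and 2.75 within 2 kb, WT 2i + Vitamin C minus serum was -6.45 and became -39.2 (3 sites) and -0.919, and the KO value was -9.86 and became -3.46 within 2 kb and -14.2 at 5 reads or more. The 4 changes of sign were at Igf2r and Zrsr1, each to a value under 1 point in size. Igf2r in WT 2i + Vitamin C against serum became 0.505 points with reads pooled and 0.168 at 20 reads or more, Igf2r between genotypes in 2i + Vitamin C became 0.222 at 5 reads or more, and Zrsr1 in WT 2i + Vitamin C against serum became -0.225 at 20 reads or more. Leaving out a replicate was not possible with 1 library per group. No paired analysis was possible because each group held 1 library. Depth limits KO 2i + Vitamin C most: Snrpn-201 had 10 reads a site there and the Grb10-001/-002 region a median of 25.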
